A study of Homo sapiens with 15 samples.

Results

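The 9 innate sensing genes followed here were the Toll-like receptors TLR1, TLR2, TLR4, TLR5, TLR6, TLR7 and TLR8 and the LPS co-receptors CD14 and LY96. They were picked by gene symbol and make up 9 of the 60286 genes of the count table. THP-1 cells, a human monocytic leukaemia line carrying the genotype label WT, were exposed to bacterial extracellular vesicles (BEVs), the membrane particles that bacteria shed, and their RNA was sequenced. NC cells received PBS. EUC and EPL cells received E. coli (DH5a) BEVs at 1 μg/mL, isolated by ultracentrifugation (UC) or by precipitation with ε-poly-L-lysine (PL). SUC and SPL cells received S. aureus BEVs at 10 μg/mL, isolated by UC or PL. Each of the 5 groups had 3 libraries. The incubation is given as 6 h in the methods and as Day 0 in the labels. Species and dose changed together and cannot be told apart.

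Toll-like receptors are membrane proteins whose outer leucine-rich domain recognises microbial molecules and whose inner TIR domain recruits adaptors such as MyD88. At the cell surface TLR4 senses the LPS of Gram-negative bacteria together with MD-2, the LY96 product, after CD14 has handed LPS over. TLR2 pairs with TLR1 or TLR6 to sense bacterial lipopeptides, TLR5 senses flagellin, and TLR7 and TLR8 lie in endosomes and sense single-stranded RNA.

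The libraries held 14399421 to 16637345 counts, with a median of 15831655. Of 10 monocyte markers, 9 had a group mean of at least 1 CPM (counts scaled to a common library size) in every group, and their summed level was 1527 to 1552 CPM in NC and 1935 to 2455 CPM in the stimulated libraries. SPI1 (471 CPM in NC, 960 to 1198 CPM as means of the stimulated groups) and CSF1R (208 and 281 to 334 CPM) carried most of the higher sum. The group means of CD33 (82.8 and 50.2 to 64.8 CPM), CSF3R (242 and 161 to 186 CPM), LYZ (90.4 and 66.1 to 83.98 CPM), ITGAM (60.1 and 50.4 to 57.95 CPM) and MPO (10.2 and 3.38 to 4.21 CPM) went the other way in all 4 BEV groups. The part of these markers in the receptor levels was not tested. CD68 was the exception, with 18 counts in all libraries together. GENCODE 44 places 81.6% of the exon bases of CD68 inside another transcribed unit, ENSG00000264772. Markers of T cells, epithelial cells, and megakaryocytes and erythroid cells stayed below 1 CPM, while NCAM1, COL1A1 and PDGFRB were among the markers of other cell types that exceeded 1 CPM in at least 1 group. EUC3, EPL1 and SUC3 stood apart from the other libraries of their groups: chi-square per degree of freedom over genes was 15.6 to 46.1 against these libraries and 2.21 to 7.09 between all others. In these 3 libraries longer genes read low within their group (Spearman's rho of exon length and deviation, -0.26, -0.26 and -0.28, across genes, which are not independent replicates). The same rho lay between -0.14 and 0.22 in the other 12. Values without these 3 libraries follow where a result moved. The labels do not say that replicates were separate cultures, so p-values measure only the spread between these samples.

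Sequence around the starts of the genes was searched for motifs of myeloid and inflammatory factors, in the window from 250 bases before to 50 bases after the RefSeq start (GRCh38.p14). RefSeq windows were matched for 6 members, and TLR1, TLR7 and LY96 were not matched. Both strands were searched for GAGGAA, a core of sites for the myeloid factor PU.1, for the AP-1 site TGANTCA, for the NF-kappa B consensus and for the interferon-stimulated response element. GAGGAA occurred in TLR4, TLR6 and CD14, that is in 3 of 6 windows, and in 27.9% of 35116 promoters of this length. TLR4 held it 4 times, and 0.0911% of all promoters held it at least 4 times. GENCODE 44 counts 228 of the 250 bases before the RefSeq start as exonic for TLR4, 210 for TLR2 and 117 for CD14. For TLR5, TLR6 and TLR8 it counts 0. The 4 TLR4 matches lie inside the TLR4 gene model, and the CD14 matches printed below lie inside that of CD14. The AP-1 letters were found in CD14 and in 7.7% of promoters. NF-kappa B letters (11.3% of promoters) and interferon element letters (3.6%) were in 0 of 6 windows, which says only that these letters are not in these windows. The 30 bases around each match are given 5′ to 3′ on the strand of the gene with the match in capitals. TTCCTC is GAGGAA read on the opposite strand, and the number after the name is the first base of the match counted from the start.
TLR4 -224, chr9:117704167-117704196, plus strand: aagccaactagcTTCCTCttgctgtttctt
TLR4 -171, chr9:117704220-117704249, plus strand: tcttcttctaacTTCCTCtcctgtgacaaa
TLR4 -99, chr9:117704292-117704321, plus strand: tgccgctttcacTTCCTCtcaccctttagc
TLR4 -40, chr9:117704351-117704380, plus strand: gtggggcggctcGAGGAAgagaagacacca
TLR6 -195, chr4:38856995-38857024, minus strand: tttgtaagttgcTTCCTCacacgaattaga
CD14 -96, chr5:140633254-140633283, minus strand: ggggctggctcgGAGGAAgagaggtgggga
CD14 AP-1 at -223, chr5:140633380-140633409, minus strand: cctggggcgccTGAGTCAtcaggacactgc
The 150 bases before the start are given in lower case for TLR8, the tested member with the highest fold, and for TLR5, the tested member that passed in no comparison. Neither held any of the 4 motifs.
TLR8, chrX:12906470-12906619, plus strand: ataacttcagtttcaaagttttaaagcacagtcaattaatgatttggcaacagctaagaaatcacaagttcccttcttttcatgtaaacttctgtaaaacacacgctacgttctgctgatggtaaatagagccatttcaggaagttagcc
TLR5, chr1:223143249-223143398, minus strand: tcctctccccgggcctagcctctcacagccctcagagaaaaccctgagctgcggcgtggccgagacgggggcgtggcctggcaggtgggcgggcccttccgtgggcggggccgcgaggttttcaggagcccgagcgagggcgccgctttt

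Against PBS, the receptor transcripts moved mainly upward in every BEV group. The endosomal receptors TLR7 and TLR8 rose most in fold from a level near 0, TLR1 (2.48- to 3.34-fold), TLR4 (1.76- to 2.69-fold) and CD14 (1.86- to 2.35-fold) rose by less, and TLR2, the most abundant member per length, rose 1.41- to 1.82-fold. A gene passed when its adjusted p did not exceed 0.01 (edgeR's quasi-likelihood test, Benjamini-Hochberg over 17198 genes), and was called a differentially expressed gene (DEG) when its log2 fold change also reached 1. Of the 9 members 8 were tested, since LY96 did not reach the low-count filter. TLR7 and TLR8 reached it through stimulated libraries alone, with 0 of 3 NC libraries at or above 0.632 CPM, so they had to differ and counts over the tested members carry no weight as support. In EUC against NC 7 members passed as higher and 5 were DEGs, where 16.5% of all tested genes passed as higher and 9.43% were DEGs in that direction. In EPL against NC 7 passed as higher and 4 were DEGs, against 16% and 9.38% of all genes. In SUC against NC 6 passed as higher and 4 were DEGs, against 12.4% and 6.82%. In SPL against NC 7 passed as higher and 3 were DEGs (5 without NC1), against 13.3% and 7.76%. No member passed as lower in any of the 4, where 14%, 13.2%, 9.15% and 10.6% of all genes did. The median log2 fold change of the tested members was 1.27 (EUC), 1.19 (EPL), 0.97 (SUC) and 0.96 (SPL), and that of all tested genes lay between -0.01 and 0.01. The member medians include TLR7 and TLR8, so they carry no weight as support either. The 4 comparisons share the NC libraries. In bulk RNA, fewer cells of a type and less RNA per cell cannot be told apart.

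**Figure D1:**
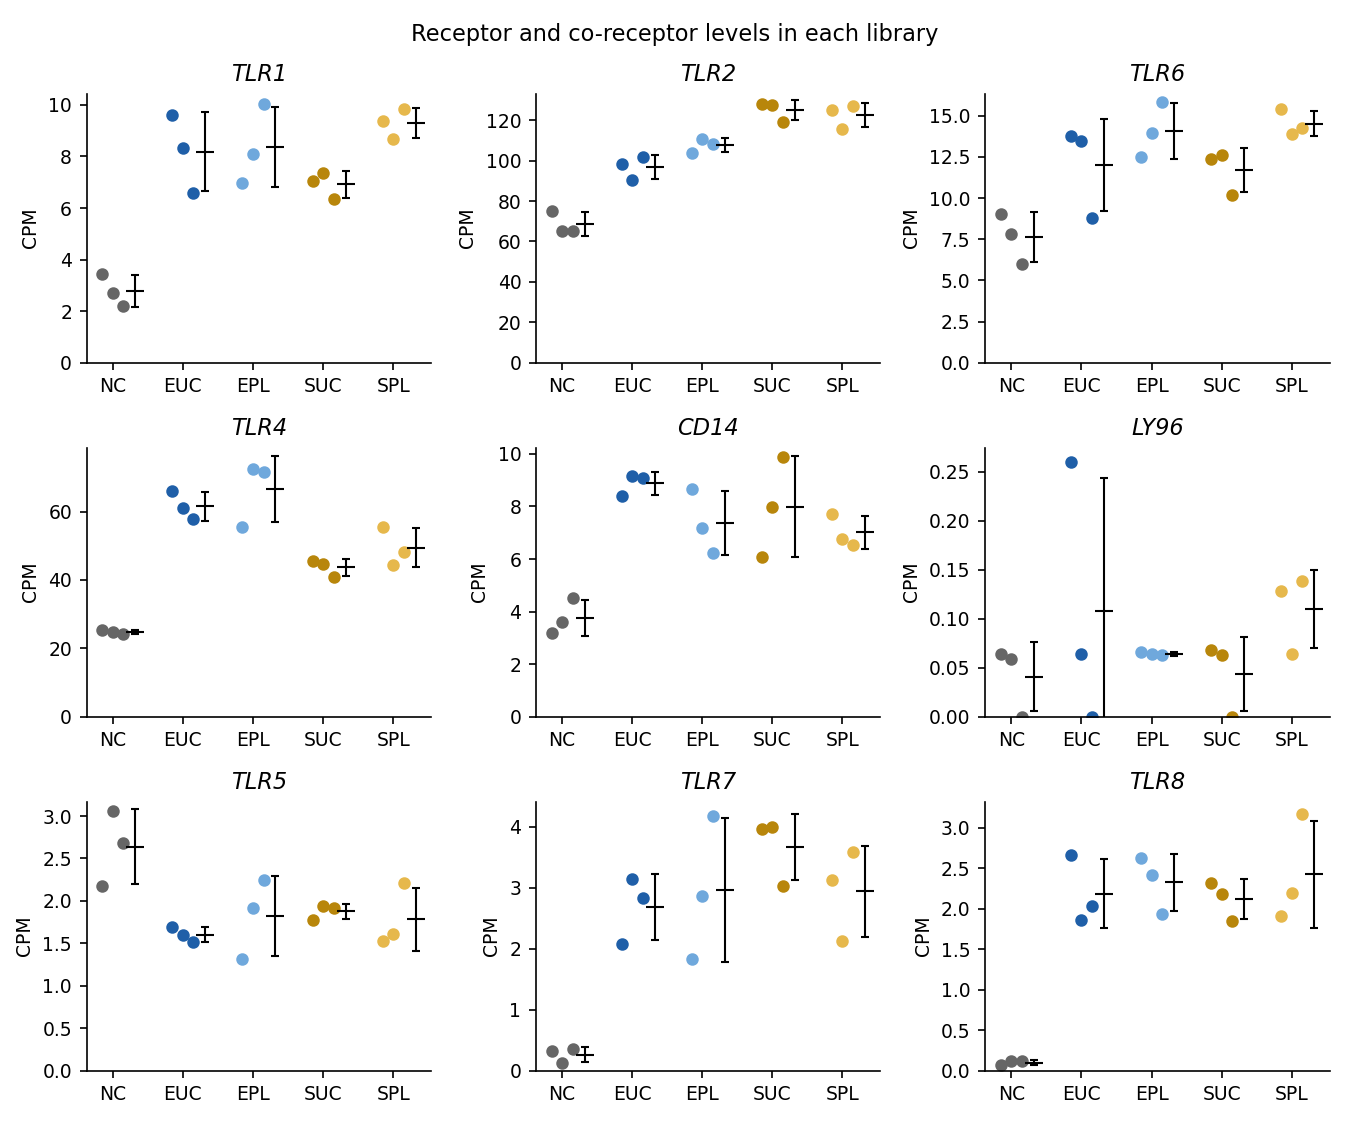
Level of each gene in CPM (vertical axis from 0, its own scale per gene) in the 15 libraries by group; dots are libraries, in replicate order, and the dash with bars is the mean and SD of 3. TLR1, TLR2, TLR4, TLR7, TLR8 and CD14 have all 12 stimulated libraries above the 3 NC libraries, as 17.5% of all tested genes do. TLR7 and TLR8 reached the filter through stimulated libraries alone. LY96 never exceeds 0.26 CPM.

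TLR2, TLR1 and TLR6 form the lipopeptide-sensing group. TLR2 (ENSG00000137462, chr4:153684070-153706260, plus strand, hg38) read 75.3, 65.4 and 65.1 CPM in NC, 98.4, 90.3 and 102 CPM in EUC, and 104, 111 and 108 CPM in EPL. It read 128, 128 and 119 CPM in SUC and 125, 116 and 127 CPM in SPL. All stimulated libraries lay above all NC libraries, and the S. aureus libraries lay highest. The same complete separation of 12 stimulated from 3 NC libraries was seen upward in 17.5% of all tested genes. That share also stands beside the separations of TLR1, TLR4, CD14, TLR7 and TLR8 below. The log2 fold change against NC was 0.50 ± 0.08 (SE) for EUC, 0.65 ± 0.08 for EPL, 0.86 ± 0.08 for SUC and 0.84 ± 0.08 for SPL, and each passed (edgeR, adjusted p 8.09e-05, 4.68e-06, 2.22e-07 and 2.84e-07). None reached the DEG threshold of 1.

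TLR1 (ENSG00000174125, chr4:38790677-38856817, minus strand) encodes the TLR2 partner for triacylated lipopeptides. It read 3.46, 2.71 and 2.21 CPM in NC, 9.63, 8.33 and 6.57 CPM in EUC, and 6.96, 8.09 and 10.1 CPM in EPL. It read 7.04, 7.37 and 6.34 CPM in SUC and 9.39, 8.69 and 9.86 CPM in SPL. No stimulated library overlapped NC, and EUC3, EPL1 and SUC3, the 3 libraries that stood apart, were each the lowest of their group. TLR1 was a DEG in all 4 comparisons, at 1.55 ± 0.19 for EUC, 1.59 ± 0.19 for EPL, 1.31 ± 0.20 for SUC and 1.74 ± 0.19 for SPL (log2, SE; edgeR adjusted p 4.44e-06, 3.51e-06, 4.96e-05 and 1.42e-06).

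TLR6 (ENSG00000174130, chr4:38822897-38856817, minus strand) encodes the TLR2 partner for diacylated lipopeptides. It read 9.02, 7.82 and 6.02 CPM in NC, 13.8, 13.5 and 8.81 CPM in EUC, and 12.5, 13.95 and 15.9 CPM in EPL. It read 12.4, 12.6 and 10.2 CPM in SUC and 15.4, 13.9 and 14.3 CPM in SPL. EUC overlapped NC through EUC3 alone, the other 3 stimulated groups lay above NC without overlap (as did 26.2%, 24.2% and 26.9% of all genes in EPL, SUC and SPL), and EUC3, EPL1 and SUC3 were again the lowest of their groups. The gene passed in EUC (0.66 ± 0.18, log2, SE), EPL (0.89 ± 0.17) and SPL (0.93 ± 0.17), with edgeR adjusted p of 0.00615, 0.000554 and 0.000434. In SUC the value was 0.62 ± 0.18 and missed the threshold (edgeR adjusted p 0.0122). The TLR6 call in EUC was lost with total-count scaling (0.50, edgeR adjusted p 0.0460), with only the compared groups in the fit (0.67, 0.0340), and without NC2, NC3, EUC1 or EUC2 (0.51 to 0.68, adjusted p 0.0175 to 0.0409). In SUC the gene passed with DESeq2 (0.62, adjusted p 0.00579), with no low-count filter (0.64, 0.000858), without NC1 (0.76, 0.00862), without SUC3 (0.71, 0.00891), and without the 3 libraries that stood apart (0.72, 0.000146). The TLR6 calls in the UC groups therefore turned on single libraries and on the settings of the fit. The TLR1 gene model spans TLR6 on the same strand, and they share 57 exon bases, or 1.26% of TLR1 and 0.83% of TLR6. Both gene models start at the same base, chr4:38856817. Reads over those bases could not be assigned to either gene alone. TLR1 and TLR6 followed each other, with Pearson's r of 0.94 over 15 libraries and 0.86 over the 12 stimulated ones (log2 CPM), which share depth and library effects.

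TLR4, CD14 and LY96 form the LPS-sensing group. TLR4 (ENSG00000136869, chr9:117704175-117724735, plus strand) read 25.3, 24.8 and 24.3 CPM in NC, 66.1, 61.0 and 57.7 CPM in EUC, and 55.4, 72.5 and 71.7 CPM in EPL. It read 45.6, 44.7 and 40.9 CPM in SUC and 55.6, 44.4 and 48.3 CPM in SPL. The NC libraries were tightly grouped, every stimulated library lay above them, and the E. coli libraries were mostly the highest. TLR4 was a DEG in EUC (1.31 ± 0.11, log2, SE) and EPL (1.42 ± 0.11), with edgeR adjusted p of 4.11e-08 and 1.53e-08. It passed without reaching the fold threshold in SUC (0.82 ± 0.11, edgeR adjusted p 1.93e-05) and SPL (0.996 ± 0.11, 1.73e-06). Without the 3 libraries that stood apart the SPL value was 1.001, and TLR4 was a DEG there too (edgeR adjusted p 3.17e-11). GENCODE 44 places 5.11% of the TLR4 exon bases also in ENSG00000285082, which had 1 count in all libraries together.

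CD14 (ENSG00000170458, chr5:140631728-140633700, minus strand), the membrane-anchored LPS acceptor, read 3.20, 3.59 and 4.53 CPM in NC, 8.39, 9.16 and 9.07 CPM in EUC, and 8.66, 7.20 and 6.24 CPM in EPL. It read 6.08, 7.998 and 9.90 CPM in SUC and 7.73, 6.76 and 6.55 CPM in SPL. The stimulated libraries all lay above NC and overlapped one another. CD14 was a DEG in EUC (1.23 ± 0.19, log2, SE) and SUC (1.08 ± 0.19), and passed below the fold threshold in EPL (0.96 ± 0.19) and SPL (0.89 ± 0.19). The edgeR adjusted p was 4.17e-05, 0.000247, 0.000566 and 0.00137 in that order. The SPL call was lost without NC1 (0.79, edgeR adjusted p 0.0104), and without the 3 libraries that stood apart the SUC value was 0.91, under the fold threshold (edgeR adjusted p 0.000225).

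LY96 (ENSG00000154589), which encodes MD-2, the subunit through which TLR4 binds lipid A, was barely counted. It had 1, 1 and 0 counts in the NC libraries, 4, 1 and 0 in EUC, 1, 1 and 1 in EPL, 1, 1 and 0 in SUC, and 2, 1 and 2 in SPL, which is 17 counts over all libraries against 11465 for TLR4. The pooled level was 0.0727 CPM (exact Poisson 95% interval 0.0423 to 0.116, counting error only). Per kb of exon TLR4 was 28.4 times LY96 and CD14 32.5 times LY96 over all libraries. No library had more than 4 counts, and the gene was not tested. With no low-count filter its smallest edgeR adjusted p against NC was 0.651. No other GENCODE 44 gene overlapped LY96. The annotation release behind the deposited counts is not given in the sources used here, and whether it bears on this level was not tested.

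TLR7 and TLR8 are neighbours on the X chromosome and encode the endosomal sensors of single-stranded RNA. TLR7 (ENSG00000196664, chrX:12867072-12890361, plus strand) had 5, 2 and 6 counts in NC, 32, 49 and 43 in EUC, 28, 45 and 67 in EPL, 58, 64 and 46 in SUC, and 49, 33 and 52 in SPL. The group means were 0.265 ± 0.129 CPM in NC (SD, n = 3), 2.68 ± 0.544 for EUC, 2.96 ± 1.18 for EPL, 3.67 ± 0.545 for SUC and 2.95 ± 0.747 for SPL. Every stimulated library lay far above NC, and the 4 stimulated groups overlapped one another. The log2 fold change was 3.31 ± 0.42 (SE) for EUC, 3.46 ± 0.42 for EPL, 3.76 ± 0.41 for SUC and 3.44 ± 0.42 for SPL (edgeR adjusted p 6.36e-06, 3.54e-06, 1.56e-06 and 4.80e-06). TLR7 reached the filter through stimulated libraries alone, so the separation from NC and these p-values carry no weight as support.

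TLR8 (ENSG00000101916, chrX:12906620-12923169, plus strand) had 1, 2 and 2 counts in NC, 41, 29 and 31 in EUC, 40, 38 and 31 in EPL, 34, 35 and 28 in SUC, and 30, 34 and 46 in SPL. The group means were 0.1003 ± 0.0314 CPM in NC (SD, n = 3), 2.19 ± 0.424 for EUC, 2.33 ± 0.354 for EPL, 2.12 ± 0.244 for SUC and 2.43 ± 0.66 for SPL. The NC libraries were at the edge of detection and the stimulated ones formed a single overlapping band. The log2 fold change was 4.33 ± 0.40 (SE) for EUC, 4.42 ± 0.40 for EPL, 4.28 ± 0.40 for SUC and 4.47 ± 0.40 for SPL (edgeR adjusted p 1.26e-07, 9.14e-08, 2.38e-07 and 9.73e-08). The filter was reached through stimulated libraries alone here too, so the separation from NC and these p-values carry no weight as support. With 5 NC counts in all, the fold rests on very few counts in its denominator, and the pooled NC level had an exact Poisson 95% interval of 0.0329 to 0.236 CPM. TLR8-AS1, an antisense gene within TLR8 that shares 0 exon bases with it, had 0 counts in NC and 36 in the stimulated libraries. Counting is not stated to use strand, so reads of the pair could be mixed. With no low-count filter TLR8-AS1 did not pass in any comparison with NC (edgeR adjusted p 0.0106 to 0.129).

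TLR5 (ENSG00000187554, chr1:223109404-223143248, minus strand), the flagellin receptor, was the one tested member that passed in no comparison with NC. It read 2.18, 3.06 and 2.68 CPM in NC, 1.69, 1.60 and 1.51 CPM in EUC, and 1.31, 1.91 and 2.25 CPM in EPL. It read 1.78, 1.94 and 1.91 CPM in SUC and 1.53, 1.61 and 2.21 CPM in SPL. EUC and SUC lay below NC without overlap, as did 25% and 22.4% of all genes, and EPL and SPL overlapped it. The log2 difference from NC was -0.72 ± 0.24 (SE) for EUC, -0.53 ± 0.24 for EPL, -0.49 ± 0.24 for SUC and -0.57 ± 0.24 for SPL (edgeR adjusted p 0.0245, 0.0892, 0.134 and 0.0791). With total-count scaling, which shifts the median of all genes by -0.16 in EUC, the EUC difference passed at -0.88 (edgeR adjusted p 0.00817).

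**Figure D2:**
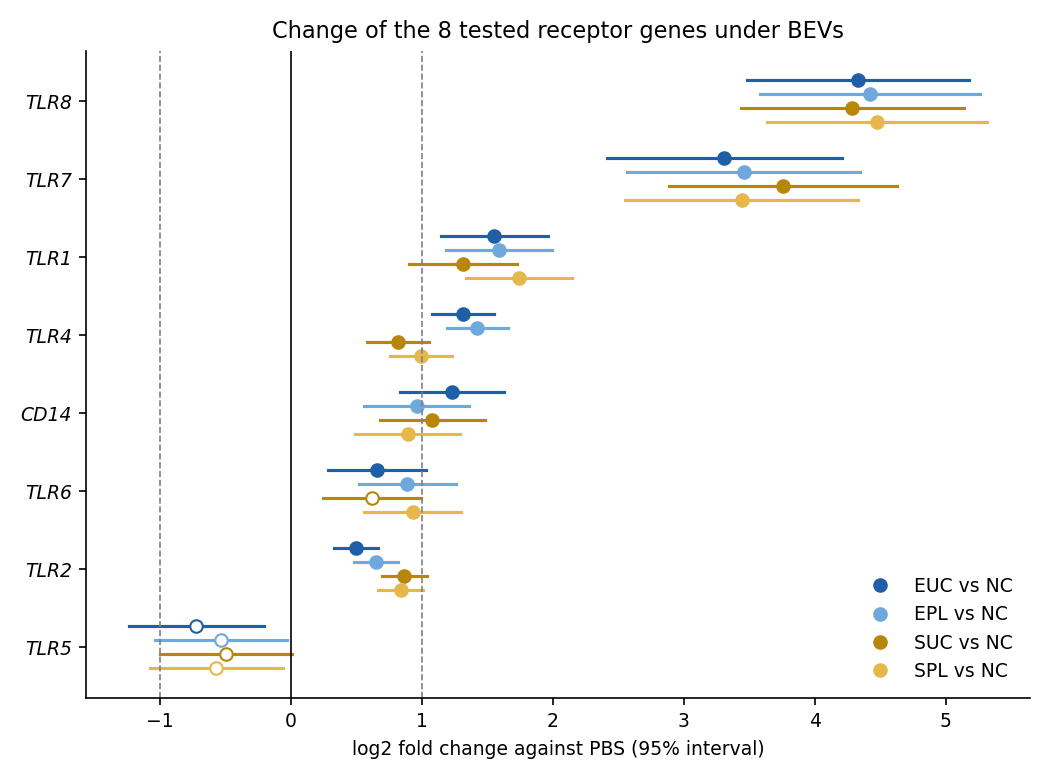
Fitted log2 fold change against PBS (horizontal axis) with its 95% interval for the 8 tested genes in the 4 BEV groups; filled dots passed, open dots did not, and dashed lines mark a log2 fold change of 1 in either direction. TLR8 and TLR7 lie above 3 in every group, TLR2 lies at 0.50 to 0.86, and TLR5 lies below 0 with open dots.

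Levels were compared between genes per kb of exon (CPM per kb, group means). TLR2 was the highest member in every group, at 11.9 in NC, 16.8 for EUC, 18.6 for EPL, 21.6 for SUC and 21.2 for SPL. CD14 (2.29) and TLR4 (1.87) followed in NC, then TLR6 (1.11), TLR1 (0.615) and TLR5 (0.341). At these lengths no neighbours in that order overlapped. LY96, TLR7 and TLR8 closed the NC order, at 0.0732, 0.0510 and 0.0230, and overlapped. In the stimulated groups CD14 and TLR4 again came after TLR2. They overlapped in EPL, where TLR4 was second at 5.01 against 4.47 for CD14, and in SPL. EPL was also the group where their order changed when the length of the single MANE transcript replaced the union of exons. TLR6 and TLR1 came next and overlapped in all 4 stimulated groups, and with the MANE length TLR1 was above TLR6 in each of them. With the MANE lengths (6698 bases for TLR6, 2851 for TLR1) their libraries overlapped in NC too, where the order of the means held. TLR7 (0.516 to 0.705) and TLR8 (0.487 to 0.557) had moved above TLR5 (0.207 to 0.243) in all 4 stimulated groups, without overlap between TLR8 and TLR5. With the MANE lengths (4216 bases for TLR8, 4235 for TLR5) the order of these means held. At those near-equal lengths the TLR8 and TLR5 libraries overlapped in EPL, SUC and SPL, as their CPM did. In EPL they spanned 1.94 to 2.62 CPM for TLR8 and 1.31 to 2.25 CPM for TLR5. TLR7 and TLR8 did not overlap in SUC and overlapped in the other 3.

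**Figure D3:**
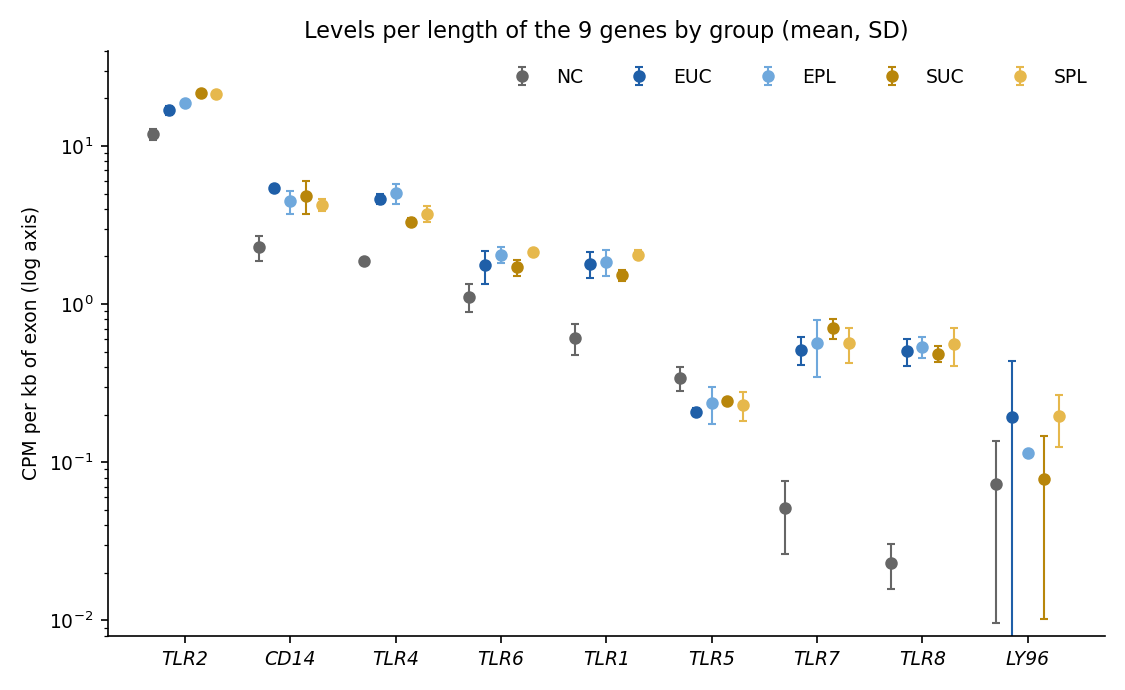
Level per length (CPM per kb of exon, log axis) of the 9 genes in each group, as mean and SD of 3 libraries; a bar that would pass below the axis ends at it. TLR2 is highest in every group, and TLR7 and TLR8 lie below TLR5 in NC and above it in the 4 stimulated groups.

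The design also compares the bacterial source. With the 6 E. coli libraries against the 6 S. aureus libraries, TLR4 was higher with E. coli BEVs and TLR2 was lower, and the other 6 tested members did not pass. TLR4 differed by 0.46 ± 0.08 (log2, SE; edgeR adjusted p 0.000836), and its libraries spanned 55.4 to 72.5 CPM with E. coli and 40.9 to 55.6 CPM with S. aureus, with a narrow overlap. TLR2 differed by -0.28 ± 0.06 (edgeR adjusted p 0.00489), and its libraries spanned 90.3 to 111 CPM and 116 to 128 CPM, without overlap. Of all tested genes, 2.87% passed as higher and 1% as lower with E. coli, and 1.24% had all S. aureus libraries above all E. coli libraries. Neither member reached a log2 difference of 1, which 0.686% of all genes did with an adjusted p under the threshold. The TLR2 call was lost without EUC2, SUC1, SUC2, SPL1 or SPL3 (-0.28 to -0.26, edgeR adjusted p 0.0102 to 0.0171). Every one of these fits kept TLR2 lower with E. coli BEVs. Without the 3 libraries that stood apart both calls held, at 0.52 for TLR4 (edgeR adjusted p 6.40e-07) and -0.30 for TLR2 (0.000156). Within one isolation method neither gene passed, where 2.49% of all genes did for UC and 0.384% for PL. TLR4 differed by 0.50 between EUC and SUC (edgeR adjusted p 0.0114) and by 0.43 between EPL and SPL (0.0723). TLR2 differed by -0.37 (edgeR adjusted p 0.0112) and -0.19 (0.495) in the same order.

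The pair can also be read as the ratio of TLR4 to TLR2 counts within a library. It was chosen after the opposite directions in these same libraries were seen, so it is given as a description, with no test. It was 0.336, 0.380 and 0.373 in NC, 0.672, 0.676 and 0.567 in EUC, and 0.534, 0.656 and 0.662 in EPL. It was 0.356, 0.351 and 0.344 in SUC and 0.445, 0.384 and 0.381 in SPL. The E. coli libraries all lay above the S. aureus libraries, and the SUC libraries lay within the NC range. The mean log2 ratio differed by 0.74 between the species, by 0.86 within UC and by 0.61 within PL. Over the 12 stimulated libraries TLR2 and TLR4 had a Pearson's r of -0.63 (log2 CPM), a description of points that fall into these 2 species.

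**Figure D4:**
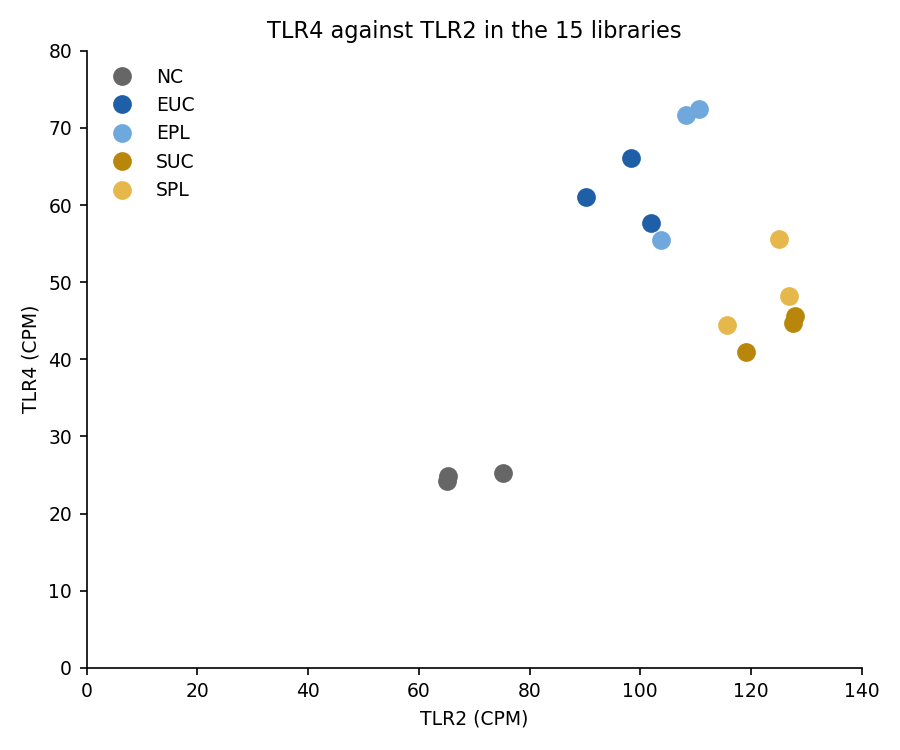
TLR4 (vertical axis, CPM) against TLR2 (horizontal axis, CPM) in each of the 15 libraries, coloured by group. NC libraries sit at the lower left, the E. coli libraries at 55.4 to 72.5 CPM of TLR4, and the S. aureus libraries further right at 116 to 128 CPM of TLR2.

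The question behind UC and PL was whether the isolation method alters the response of the cells. No tested member passed between EPL and EUC or between SPL and SUC, where 0% and 0.00581% of all tested genes did (edgeR). At an unadjusted p under 0.05 the members counted 0 for EPL against EUC and 1, TLR1, for SPL against SUC, where 604 and 1000 of the 17198 tested genes did, and DESeq2 passed 0 members in both. In TLR1 the SUC and SPL libraries did not overlap (6.34 to 7.37 CPM and 8.69 to 9.86 CPM), as was also seen for TLR6 (10.2 to 12.6 CPM and 13.9 to 15.4 CPM). Complete separation with SPL above SUC was seen in 6.87% of all tested genes. TLR2 had its EPL libraries above its EUC libraries, as did 3.11% of all genes. The difference for TLR1 was 0.43 on the log2 scale (95% interval 0.06 to 0.80, edgeR adjusted p 0.814). For TLR6 it was 0.31 (95% interval -0.05 to 0.67, edgeR adjusted p 0.859). Neither difference passed, although the TLR1 interval lay above 0. For TLR4 the interval of EPL minus EUC was -0.12 to 0.34 and that of SPL minus SUC was -0.05 to 0.41. For TLR2 these intervals were -0.02 to 0.32 and -0.20 to 0.14. Intervals were wider for the low genes, at -0.49 to 0.78 and -0.94 to 0.30 for TLR7 and -0.44 to 0.61 and -0.34 to 0.72 for TLR8. Differences within these intervals were not excluded, and the part of depth in their width was not tested. The difference of the method effects between species passed in 0 members and in 0% of all genes (edgeR), with 0 members and 659 of all 17198 tested genes at an unadjusted p under 0.05.

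The remaining Toll-like receptors stayed under the filter. TLR3, the double-stranded RNA sensor, had 53 counts over all libraries and TLR10 had 30. TLR9, the sensor of unmethylated CpG DNA, was listed at 0 in every library. GENCODE 44 places 99.67% of its exon bases also in ENSG00000173366, likewise listed at 0. The counting settings are not given, so a count of 0 may set no limit on the TLR9 transcript, which was not tested.

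Partner genes of the receptors were read from 5 lists made for this pathway. Of all tested genes, 16.5%, 16%, 12.4% and 13.3% passed as higher in EUC, EPL, SUC and SPL. As lower, 14%, 13.2%, 9.15% and 10.6% passed. The list counts below were not tested against these shares, and in lists this short a count of 1 lies near them. Among genes that handle LPS or lipopeptides, 3 of 6 were tested. CD36, a scavenger receptor that works with TLR2 and TLR6, passed as higher in all 4 groups (1.62, 1.77, 1.69 and 1.77 on the log2 scale in EUC, EPL, SUC and SPL, edgeR adjusted p at most 7.09e-11). CD180, a TLR4-like receptor without the signalling domain, fell in EUC and EPL by 1.16 and 1.18 (edgeR adjusted p 0.00115 and 0.00102). With S. aureus BEVs CD180 stood at -0.19 and -0.36 and did not pass (edgeR adjusted p 0.591 and 0.260), and the species difference itself passed at -0.89 (0.00438). Within one isolation method CD180 did not pass between species, neither for UC (-0.97, edgeR adjusted p 0.0335) nor for PL.

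Of 8 genes for receptor folding and trafficking, all 8 were tested, and 1, 1, 1 and 0 passed as higher and 3, 3, 1 and 2 as lower in EUC, EPL, SUC and SPL. UNC93B1, the chaperone that carries TLR7 and TLR8 to endosomes, rose in EUC (0.58) and EPL (0.58), and stood at 0.38 and 0.40 in SUC and SPL without passing (edgeR adjusted p 0.000469, 0.000446, 0.0160 and 0.0109). TASL, the adaptor that links endosomal receptors to IRF5, fell in EUC (-0.99), EPL (-0.96) and SPL (-0.49) and did not pass in SUC (-0.32, edgeR adjusted p 0.0262). TASL also differed between species, at -0.57 (edgeR adjusted p 9.1e-05). This species difference passed within UC (-0.67, edgeR adjusted p 0.000729) but not within PL. SLC15A4, the lysosomal transporter that anchors TASL, fell in all 4 groups, by 0.35 to 0.51 on the log2 scale. Both partners of this pair were thus lower in EUC, EPL and SPL, where TLR7 and TLR8 were higher.

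All 5 listed endosomal proteases were tested, and 3, 2, 1 and 1 passed as higher in EUC, EPL, SUC and SPL, with 0 as lower. CTSB, the cathepsin B gene, passed in all 4 groups at 0.42 to 0.53 (log2). CTSL, the cathepsin L gene, passed in EUC (0.83) and EPL (0.85) and stood at 0.45 and 0.39 in SUC and SPL (edgeR adjusted p 0.0213 and 0.0421). CTSK, the cathepsin K gene, passed in EUC alone among the 4 (0.55, edgeR adjusted p 0.00946).

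Of 10 adaptors and kinases 9 were tested, with 3, 4, 3 and 3 higher and 1, 1, 1 and 1 lower in EUC, EPL, SUC and SPL. IRAK2, a kinase of the MyD88 complex, rose from 1.86 ± 0.198 CPM in NC (SD, n = 3) to 48.6 ± 4.80 for EUC, 37.9 ± 1.13 for EPL, 31.4 ± 3.22 for SUC and 32.7 ± 4.33 for SPL. That is 4.07 to 4.70 on the log2 scale, and IRAK2 was higher with E. coli than with S. aureus BEVs by 0.42 (edgeR adjusted p 0.00231). The species difference of IRAK2 passed within UC (0.63, edgeR adjusted p 0.00203) but not within PL. MYD88, the adaptor of most Toll-like receptors, rose by 1.71 to 1.92, and TICAM1, the TRIF adaptor used by TLR4 and TLR3, by 1.33 to 1.63.

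Of 6 genes that restrain the receptors 5 were tested, with 3 higher and 1 lower in each of the 4 groups. TNFAIP3, which encodes the ubiquitin-editing enzyme A20, rose from 14.8 ± 2.05 CPM in NC (SD, n = 3) to 500 to 579 CPM as group means, or by 5.07 to 5.29 on the log2 scale. TRAFD1, a negative regulator of Toll-like receptor signalling, rose by 0.43 to 0.68. SIGIRR, a TIR-domain receptor that dampens the pathway, fell in all 4 groups, at -1.77, -1.88, -1.59 and -1.50 in EUC, EPL, SUC and SPL (edgeR adjusted p at most 2.86e-05).

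**Figure D5:**
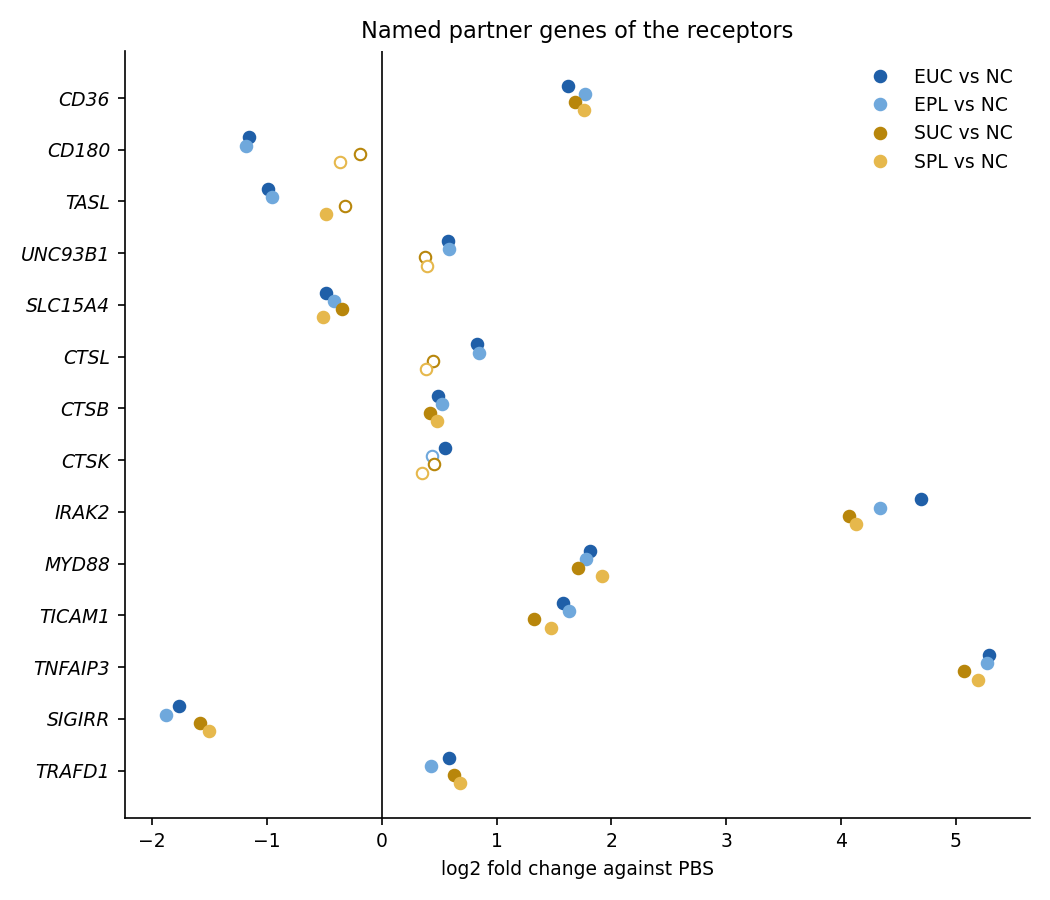
Fitted log2 fold change against PBS (horizontal axis) of the 14 named partner genes in the 4 BEV groups; filled dots passed and open dots did not. TNFAIP3 and IRAK2 lie above 4, SIGIRR lies between -1.88 and -1.50, and CD180 and TASL lie lower with E. coli than with S. aureus BEVs.

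The genes whose levels ran most like each member over the 15 libraries were ranked by Pearson's r of log2 CPM among 12286 protein-coding genes. TLR8 was closest to CD36 (0.99), TMEM138 (0.99) and SNX20 (0.99), and genes close to TLR7 included ABI2 (0.99) and CLIC4 (0.98). TLR4 was closest to NABP1 (0.99), NEMP1 (0.99) and NLGN4Y (0.99), and these kept 0.94 to 0.95 over the 12 stimulated libraries. The 3 genes closest to TLR8 had values of 0.44 to 0.75 over those 12. TLR2 was closest to LPCAT2 (0.96), TCF7L2 (0.95) and LIPA (0.94), and TLR1 to PPFIA2 (0.98), SLC37A1 (0.97) and SLC5A3 (0.97). TLR6 was closest to GRK3, ATP10A and CPSF7 (each 0.95), CD14 to TFEB, SPHK1 and MYPOP (each 0.96), and TLR5 to ZNF652 (0.93), RHOBTB1 (0.91) and NLRP1 (0.90). These values describe 15 libraries that share depth and library effects.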

How the data were processed

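RNA was isolated by the authors in Trizol, and NEB Next Ultra libraries, not stated to keep strand, were read as pairs on a NovaSeq. Reads were aligned to hg38 with HISAT2. The submitters' processing notes also name FastQC 0.11.5, HISAT2 2.1.0, StringTie 1.3.3b, DESeq 1.28.0 and featureCounts, without a role. The sources used here do not give the counting settings, strand or annotation release. The deposited table holds raw counts for 60286 genes in 15 libraries, of which 23219 had no count, and 0 columns of values were left unused. Each column was matched to its sample by title.

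Counts were scaled with TMM and tested with edgeR 4.0.16 (R 4.3.3; glmQLFit and glmQLFTest) in 1 fit of 15 libraries. filterByExpr (minimum count 10) left 17198 genes. CPM values use TMM-scaled library sizes, and levels per length use GENCODE 44 exon unions. The test was checked on simulated counts. Exact Poisson intervals used scipy 1.17.1. Alternatives were DESeq2 1.42.0, other scalings, no filter, fewer groups, a replicate block, no fold threshold and leaving out libraries. The within-method species values, the ratio, the transcript lengths and the fits without EUC3, EPL1 and SUC3 were added after seeing the data.

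The 9 members and all lists were chosen with earlier results of these data known. The text names the members, TLR3, TLR9 and TLR10, genes overlapping a member, and from each partner list up to 3 genes with the largest absolute mean log2 fold change over the 4 comparisons with NC, among those with a mean of at least 1 CPM that passed at least once. For each tested member the 3 genes closest to it in Pearson's r are also named, except where a gene is not reported here. A match in a promoter is a description of letters.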

Additional observations from a re-analysis of the deposited data

How the results depend on the processing

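Of 776 recomputed log2 values of single members, 733 kept their direction and side of the threshold. Among them were TLR1, TLR2 and TLR4 in all 4 comparisons with NC. TLR7 and TLR8 kept theirs too, but they reached the filter through stimulated libraries alone, so this carries no weight as support. With no fold threshold 7 members were higher in EPL and 7 in SPL against NC, where 16% and 13.3% of all tested genes were. Between species 1 member was higher and 1 lower, where 2.87% and 1% of all tested genes were. Leaving out 1 library gave 5 DEGs higher in EUC each time, 4 to 5 in EPL, 3 to 4 in SUC and 3 to 5 in SPL, the 5 without NC1. In the same fits the members held 0 DEGs lower than NC, 0 between methods and 0 between species. With the 3 libraries that stood apart left out the member counts were 5, 4, 3 and 4. In that fit 1726, 1724, 1238 and 1441 of 17584 tested genes were DEGs higher than NC. With all libraries 9.43%, 9.38%, 6.82% and 7.76% of the tested genes were. TLR7 and TLR8 are in each of these member counts of DEGs higher than NC, so the counts carry no weight as support.

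Some differences between methods or species that had not passed changed sign under other settings. Between species TLR6 went to 3e-04 with RLE size factors and to 0.076 without the 3 libraries, TLR5 went to 0.022 without those, and TLR8 went to -0.05 for EPL against EUC without them. Leaving out 1 library gave ranges across 0 for EPL against EUC in TLR1 (-0.126 to 0.171), TLR7 (-0.193 to 0.393) and TLR8 (-0.025 to 0.255). For SPL against SUC it did so in TLR2 (-0.06 to 0.011), TLR5 (-0.249 to 0.027) and TLR8 (-0.039 to 0.342). Between species it did so in TLR1 (-0.043 to 0.101), TLR6 (-0.065 to 0.076) and TLR8 (-0.097 to 0.102). The cause was not tested.

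Whether replicate numbers pair the samples was not settled. Same-numbered pairs correlated at -0.45 to 0.53 (median 0.022), with 7 of 30 above 0.1. Different-numbered pairs correlated at -0.48 to 0.49 (median -0.008), with 12 of 60 above 0.1. Of 15 libraries, 9 were closest to their own number. With the replicate number as a block 5, 4, 4 and 3 members were DEGs in EUC, EPL, SUC and SPL, as without it. In that fit 1581, 1597, 1154 and 1315 of 17198 tested genes were DEGs higher than NC. TLR7 and TLR8 are in these member counts too, and no call of a member changed. With total-count scaling the median of all genes moved by -0.16, -0.12, -0.12 and -0.11 in EUC, EPL, SUC and SPL, and DEGs in EUC split into 1412 higher and 1366 lower, against 1621 and 989 with TMM. LY96, TLR3 and TLR10, and the NC levels of TLR7 and TLR8, rest on few counts, and the part of depth in this was not tested.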
